A study of Mus musculus with 27 samples.

Results

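The 44 genes described here encode the machinery that moves new proteins into the endoplasmic reticulum (ER), trims, glycosylates and folds them there, and answers when folding fails. They were chosen by symbol, and their rows were found in the deposited count table of 56691 genes through the Ensembl identifiers and the mouse GENCODE M21 annotation. All 44 were found and all 44 were among the 17573 genes tested. They fall into 8 roles: 10 translocon genes, 5 signal peptidase genes, 5 signal recognition particle genes, 7 oligosaccharyltransferase genes, 6 lectin chaperones and disulfide isomerases, 6 unfolded protein response genes, 3 genes of ER-associated degradation and 2 transporters of nucleotide and sulfate donors.

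The libraries were RNA-seq of microglia sorted from the tissue around an intracerebral hemorrhage (ICH) in mice labelled WT, and the study asked how gut microbes shape the response of these cells to the bleed. The 9 groups of 3 libraries cross 3 microbial states with 3 surgical states. GF mice were kept germ free, ABX mice had received an antibiotic cocktail, and SPF mice, whose labels name no microbial treatment, served as the comparison. ICH mice had received collagenase, which breaks down vessel walls, and were sampled on day 3 or day 7, and sham mice had received PBS and are all labelled day 7. A comparison of ICH day 3 with sham therefore also differs in the day of sampling. The labels do not say whether the libraries of a group came from separate or pooled mice, so the p-values measure the spread between libraries, which may be partly technical.

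Proteins bound for the cell surface, for secretion or for lysosomes enter the ER through the Sec61 channel, are delivered there by the signal recognition particle, lose their signal peptide to signal peptidase and receive N-linked sugars from oligosaccharyltransferase. Calnexin, calreticulin and the disulfide isomerases fold them, and molecules that fail to fold are sent back to the cytosol by ER-associated degradation. When unfolded protein accumulates, the sensors IRE1, PERK and ATF6 start the unfolded protein response, in which the transcription factors XBP1, ATF4, CHOP and cleaved ATF6 adjust the production of the folding machinery. Microglia, the resident macrophages of the brain, make large amounts of surface receptors and lysosomal enzymes and so depend on this route.

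Several libraries stood apart before any ER gene was compared. Total counts ran from 41664864 to 79090595 per library, but the number of genes with a count ran from 9185 to 18408, and 7 libraries had fewer than 12000: all 3 GF ICH day 7 libraries, ABX ICH day 7 replicates 1 and 2, and GF sham replicates 1 and 2. The GF ICH day 7 libraries also held less of the GC-rich transcripts. Their top minus bottom GC quintile difference in mean centred log2 expression was -2.13 ± 0.59, against 1.28 ± 0.28 in GF ICH day 3, 0.76 ± 0.39 in GF sham and 0.26 ± 0.56 in SPF ICH day 7 (SD, n = 3 each). The same difference in ABX ICH day 7 was -0.79 ± 0.20, against 0.84 ± 0.28 in ABX ICH day 3 and 0.17 ± 0.15 in ABX sham. Mitochondrial genes held 4.71 ± 1.51% of the counts in GF ICH day 7, and for ABX ICH day 7 their share was 2.96 ± 0.88%. They held 0.92 ± 0.04% in GF ICH day 3, 1.32 ± 0.15% in GF sham and 1.33 ± 0.28% in ABX sham (SD, n = 3 each). All 10 microglial marker genes were present in every group, but edgeR called some of them in GF ICH day 7: 4 lower against GF sham, 2 higher and 4 lower against GF ICH day 3, and 1 higher and 3 lower against SPF ICH day 7. Of the 10, 0 were called in ABX ICH day 7 against ABX sham and 3 were higher against ABX ICH day 3. The 10 neutrophil markers summed to 919.9 to 3573 CPM in GF ICH day 7, where CPM are counts scaled to TMM-adjusted library sizes. Their sums were 158 to 379 in GF ICH day 3, 208 to 895 in GF sham and 104 to 124 in SPF ICH day 7. Mmp9 was at 0 in GF ICH day 7. Of the 9 neutrophil markers tested, edgeR called 1 higher in GF ICH day 7 against GF sham. Against GF ICH day 3 it called 0, and against SPF ICH day 7 it called 1 higher. The 10 monocyte markers summed to 718 to 2154 CPM in GF ICH day 7 and 17.9 to 1029 in ABX ICH day 7, against 6.14 to 616 in GF sham, 13.5 to 19.95 in ABX sham and 61.2 to 192 in SPF ICH day 7. Of these monocyte markers, edgeR called 5 higher and 1 lower in GF ICH day 7 against GF sham. It called 1 higher against GF ICH day 3 and 2 higher against SPF ICH day 7. In ABX ICH day 7 against ABX sham it called 0. The 10 plasma and B cell markers, of interest because plasma cells are rich in ER, summed to 0.841 to 192 CPM in GF ICH day 7, with Jchain, Mzb1, Sdc1 and Pou2af1 at 0, and to 443 to 2384 in GF sham. Of the 4 plasma and B cell markers tested, 2 were called lower in that comparison. The summed levels of 7 further lists (border-associated macrophages, T and NK cells, fibroblasts, astrocytes, oligodendrocytes, neurons and endothelium) overlapped between GF ICH day 7 and GF sham, and the T and NK cell list reached 13.9 to 331 CPM in ABX ICH day 7, against 6.18 to 18.2 in ABX sham. Of the 8 T and NK cell markers tested, 0 were called in ABX ICH day 7 against ABX sham. The part of the sparse libraries, of GC content, of the mitochondrial share and of these other cells in the results that follow was not tested beyond the values given. In bulk libraries, fewer cells of a type and less RNA per cell cannot be told apart.

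Levels are given as CPM on TMM-scaled library sizes, in the order of replicates 1 to 3, and tests are edgeR quasi-likelihood tests over all 17573 genes with a Benjamini-Hochberg adjusted p of 0.05 as the threshold. CPM does not account for transcript length, so levels are compared between groups and not between genes. Exons of 18 of the 44 genes overlap those of another annotated gene, among them Spcs1, Spcs3, Ssr2, Sec63, Rpn1, Rpn2 and Syvn1. The strand rule of the counting is not given in the sources used here, so their reads may include those of the other gene. The ICH day 7 libraries of GF and ABX mice carry a shift of the median gene. Over all tested genes the median log2 fold change was -2.10 in GF ICH day 7 against GF sham, -2.49 against GF ICH day 3 and -1.56 against SPF ICH day 7. For ABX ICH day 7 and its sham it was -0.79, and for SPF ICH day 7 against SPF sham -0.03. With DESeq2 size factors the medians of the GF and ABX comparisons were -2.63, -2.71, -1.75 and -1.19. The shift depended on abundance. In GF ICH day 7 against GF sham, the median was -4.24 for genes under 10 CPM, -0.76 for genes of 10 to 100 CPM and 0.26 for the 1656 genes of at least 100 CPM, a class that holds 30 of the 44 ER genes.

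ER genes passed the edgeR threshold in the ICH day 7 libraries of GF and ABX mice, and in none of the other comparisons. In GF ICH day 7 against GF sham, 16 of the 44 passed, 5 higher and 11 lower, where 14.4% of all tested genes passed (1.7% higher and 12.7% lower). Among the 30 ER genes of at least 100 CPM, 10 passed (33.3%), against 24.3% of all genes that abundant. Among the 12 ER genes of 10 to 100 CPM, 6 fell and none rose, with a median log2 fold change of -2.70, while 25.8% of all genes in that range fell. Against GF ICH day 3, 17 ER genes passed, 7 higher and 10 lower (all genes 15.3%, with 1.83% higher and 13.4% lower). Against SPF ICH day 7, 13 passed, 5 higher and 8 lower (all genes 12.9%, with 1.08% higher and 11.8% lower). Of the 30 abundant ER genes, 11 and 7 passed in these, against 25.4% and 16.8% of all genes that abundant. These 3 comparisons share the GF ICH day 7 libraries. In ABX ICH day 7, 3 ER genes passed against ABX sham, 2 higher and 1 lower (all genes 0.945%, with 0.734% higher and 0.211% lower). Another 3 calls came against ABX ICH day 3, again 2 higher and 1 lower (all genes 0.728%, with 0.563% higher and 0.165% lower). Against SPF ICH day 7, 1 passed, which was higher (all genes 0.0854%, with 0.074% higher). All of these ABX calls were in the 30 abundant ER genes, of which 10%, 10% and 3.33% passed in the 3 comparisons, while 7.61%, 6.7% and 0.845% of all genes that abundant did. The median log2 fold change of the abundant ER genes in ABX ICH day 7 against ABX sham was 0.86, beside 1.04 for all genes that abundant.

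Scaling moved the balance of these counts. With DESeq2 size factors the split in GF ICH day 7 was 1 higher and 11 lower against GF sham and 4 higher and 10 lower against GF ICH day 3. The ABX ICH day 7 split against ABX sham was then 0 higher and 1 lower. When edgeR was fitted on the 6 libraries of the GF ICH day 7 and GF sham groups alone, 0 of the 44 passed, with 27 genes of the whole table passing and 1319 at an unadjusted p under 0.05. The same restriction gave 20 ER genes against GF ICH day 3 and 11 against SPF ICH day 7, and 0 in each ABX ICH day 7 comparison. The shares of all tested genes that passed in those fits, or with DESeq2 size factors, are not given here. The counts therefore do not set the ER genes apart from other genes. The GF ICH day 7 calls of Sec63, Spcs2, Stt3b, Atf4 and Sel1l held in all 3 comparisons with any 1 library of the groups compared left out. The heat map of all 44 genes shows how the changes are arranged by role.

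**Figure D1:**
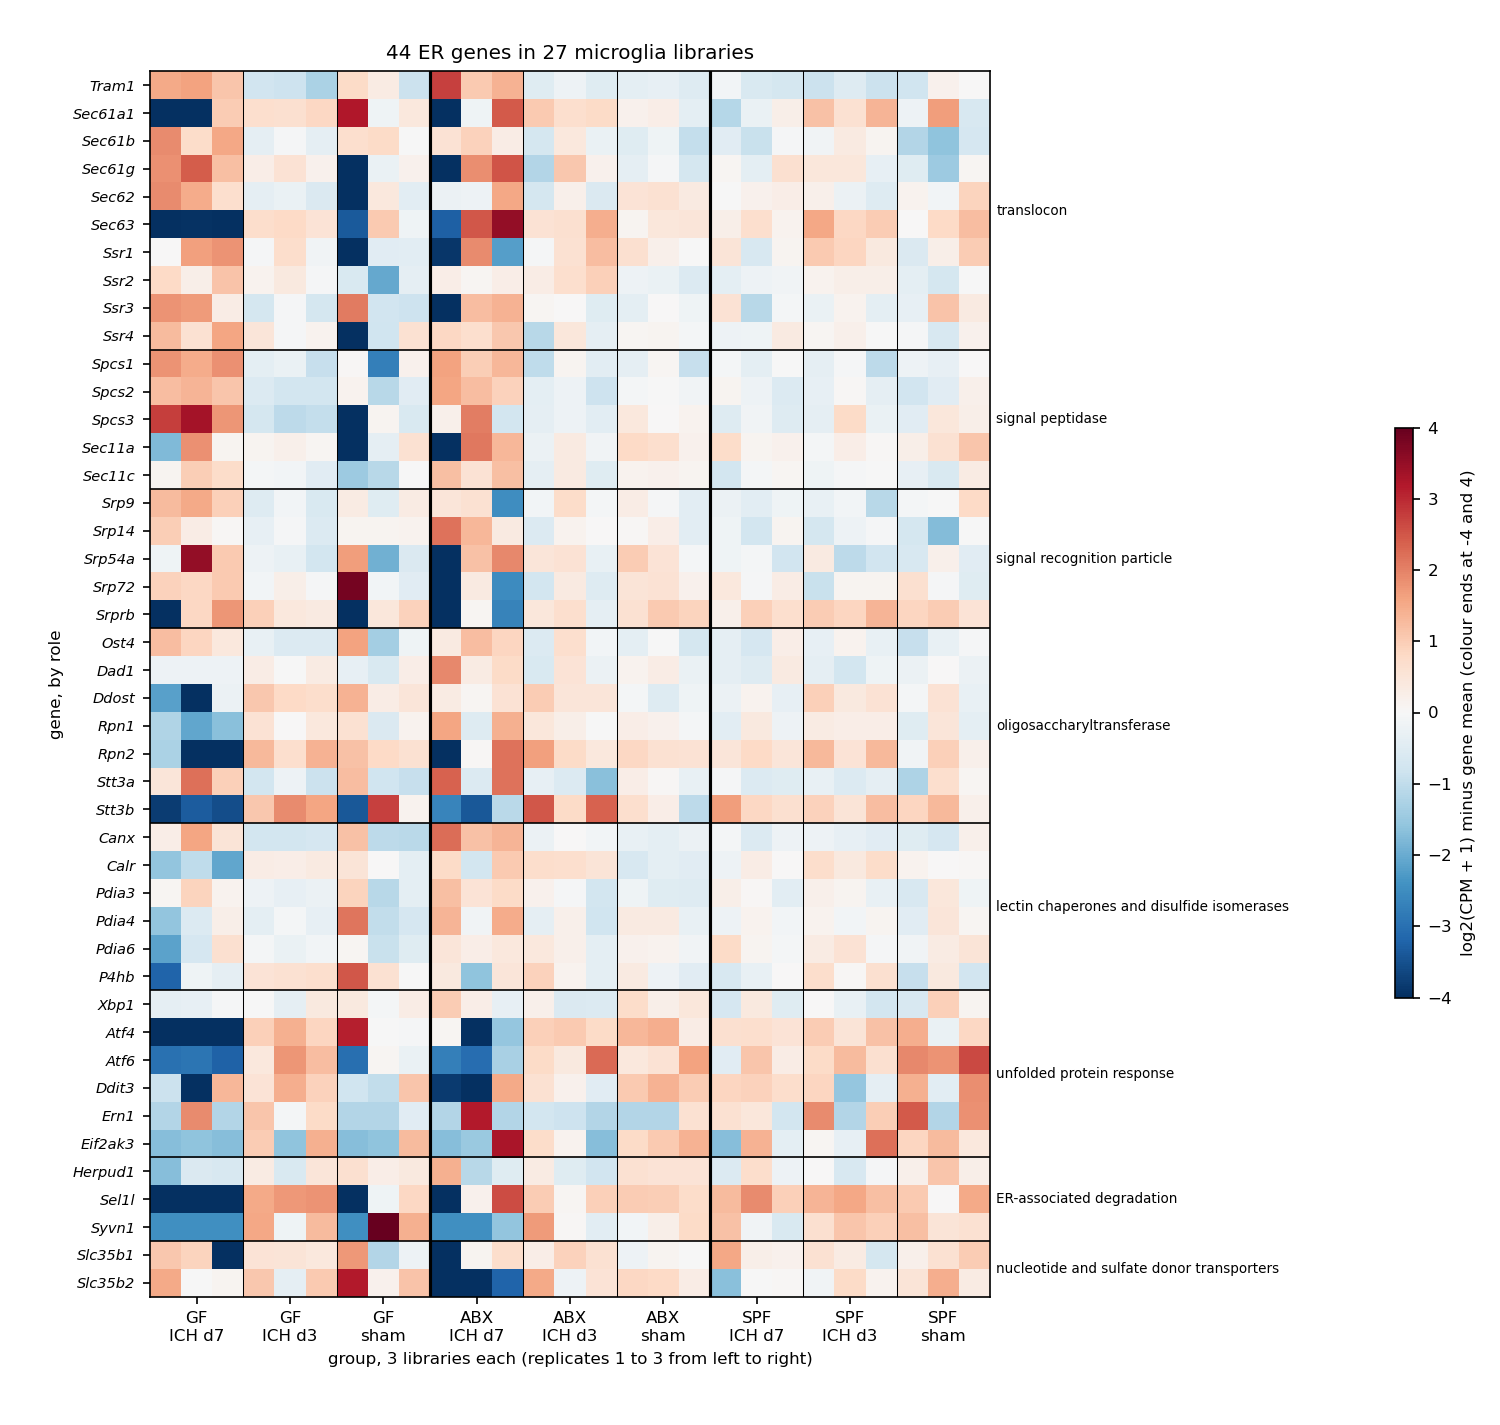
Each row is 1 of the 44 ER genes, ordered by role, and each column is 1 of 27 libraries, with colour giving log2(CPM + 1) minus the gene's mean over all libraries and ending at -4 and 4. The 3 GF ICH day 7 columns are high for most translocon and signal peptidase genes and low for Sec63, Rpn2, Stt3b, Atf4, Atf6, Sel1l and Syvn1, and GF sham replicate 1 and ABX ICH day 7 replicate 1 show scattered very low values.

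Signal peptidase, which cuts the signal peptide from chains entering the ER, held most of the genes that rose in GF ICH day 7 against GF sham. Of its 5 genes, 4 rose against GF sham, with a role median log2 fold change of 1.61 where the median was 0.26 for genes of at least 100 CPM and -2.10 for all tested genes. Against GF ICH day 3 and SPF ICH day 7, 3 of its genes rose. Among all genes of at least 100 CPM, 12.4% rose against GF sham, 17.0% against GF ICH day 3 and 10.3% against SPF ICH day 7. Spcs2 encodes an accessory subunit, lies on chromosome 7 (99837569 to 99863462, mm10) and gave the tightest values of the group. It had 2171, 2388 and 1995 CPM in GF ICH day 7, against 641, 555 and 558 in GF ICH day 3, 1033, 429.9 and 679 in GF sham and 999.6, 806 and 629.9 in SPF ICH day 7. All 3 GF ICH day 7 libraries lay above all 9 others. Its changes were 1.61 ± 0.33 against GF sham, 1.903 ± 0.33 against GF ICH day 3 and 1.43 ± 0.33 against SPF ICH day 7 (log2 fold change ± SE). Spcs2 had edgeR adjusted p = 0.00244, 0.000960 and 0.00831 in that order. In the antibiotic-treated mice the pattern recurred, with 2795, 2200.2 and 1759.7 CPM in ABX ICH day 7, against 708, 815 and 524 in ABX ICH day 3 and 877, 921 and 846 in ABX sham. The ABX ICH day 7 libraries did not overlap with either group, and Spcs2 rose by 1.35 ± 0.33 against ABX sham and 1.72 ± 0.33 against ABX ICH day 3 (log2 fold change ± SE). Spcs2 had edgeR adjusted p = 0.0435 and 0.00890 in that order. Against SPF ICH day 7 its value was 1.47 ± 0.33 and missed the threshold (edgeR adjusted p = 0.0725). Genes of at least 100 CPM, to which Spcs2 belongs, had medians of 1.04, 1.04 and 0.98 in these 3 ABX ICH day 7 comparisons. Spcs2 lost its call in ABX ICH day 7 against ABX sham without ABX ICH day 7 replicates 1 or 2 or any 1 ABX sham library (edgeR adjusted p up to 0.241). The Spcs2 call in ABX ICH day 7 against ABX ICH day 3 was lost without ABX ICH day 3 replicates 1 or 3 (edgeR adjusted p up to 0.144). Both ABX calls of Spcs2 were also lost with DESeq2 size factors, with no filter and on the groups compared only. The call against ABX sham was lost with the replicate block as well. With DESeq2 size factors the log2 fold changes against GF sham were 1.02 for Spcs2, 1.56 for Spcs1, 3.18 for Spcs3 and 0.97 for Sec11c, all still above 0, and Spcs3 alone passed.

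Spcs1, another accessory subunit, had 796, 639.9 and 799.7 CPM in GF ICH day 7, against 174, 189 and 118 in GF ICH day 3, 235, 33.2 and 253 in GF sham and 216, 173 and 226 in SPF ICH day 7. The GF ICH day 7 libraries were again above the other 9, with GF sham replicate 2 the lowest. It rose by 2.10 ± 0.55 against GF sham, 2.21 ± 0.55 against GF ICH day 3 and 1.86 ± 0.55 against SPF ICH day 7 (log2 fold change ± SE). Spcs1 had edgeR adjusted p = 0.0129, 0.0102 and 0.0273 in that order. Spcs3, the subunit on chromosome 8 (54520433 to 54529998), changed most, with 733, 1096 and 369 CPM in GF ICH day 7, against 64.8, 50.8 and 55.0 in GF ICH day 3, 2.62, 116 and 69.3 in GF sham and 75.3, 97.6 and 74.0 in SPF ICH day 7. No library of the other 3 groups reached the lowest GF ICH day 7 value, and GF sham replicate 1 was far below its own group. The gene rose by 3.55 ± 0.87 against GF sham, 3.69 ± 0.87 against GF ICH day 3 and 3.15 ± 0.85 against SPF ICH day 7 (log2 fold change ± SE). Spcs3 had edgeR adjusted p = 0.00858, 0.00781 and 0.0187 in that order. ABX ICH day 7 libraries ranged from 63.3 to 441 CPM and did not pass against ABX sham (edgeR adjusted p = 0.524). Spcs1 lost its call against GF ICH day 3 without GF ICH day 3 replicate 3 (edgeR adjusted p up to 0.0545). The Spcs1 call against SPF ICH day 7 was lost without GF ICH day 7 replicates 1 or 3 or any 1 SPF ICH day 7 library (edgeR adjusted p up to 0.103). Spcs3 lost its call against SPF ICH day 7 without GF ICH day 7 replicate 2 or any 1 SPF ICH day 7 library (edgeR adjusted p up to 0.0638).

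The catalytic subunit exists in interchangeable forms, encoded by Sec11a and Sec11c. Sec11c had 423, 784 and 661 CPM in GF ICH day 7, against 373, 368 and 289 in GF ICH day 3, 144, 183 and 392 in GF sham and 239, 374 and 418 in SPF ICH day 7. The GF ICH day 7 values lay above those of GF sham without overlap, and Sec11c rose against GF sham (log2 fold change 1.38 ± 0.42 (SE), edgeR adjusted p = 0.0293) but passed neither against GF ICH day 3 (edgeR adjusted p = 0.140) nor against SPF ICH day 7 (edgeR adjusted p = 0.151). Sec11c lost its call against GF sham without GF ICH day 7 replicates 2 or 3 or GF sham replicates 1 or 2 (edgeR adjusted p up to 0.106). Sec11a was scattered, with 43.7, 549 and 166 CPM in GF ICH day 7 and 5.88, 666 and 388 in ABX ICH day 7, against 5.24, 118 and 231 in GF sham and 263, 246 and 172 in ABX sham, and passed in no comparison. Sec11a shares bases with Nmb on the same strand, and reads there may belong to either gene.

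The translocon itself was mixed. Of its 10 genes, 1 rose and 1 fell in GF ICH day 7 against GF sham, with a role median of 1.41. Tram1, a membrane protein beside the channel that helps nascent chains enter it, had 1087, 1165 and 821 CPM in GF ICH day 7, against 223, 215 and 159 in GF ICH day 3, 648, 478 and 209 in GF sham and 352, 252 and 236 in SPF ICH day 7. All 9 others were exceeded by the GF ICH day 7 libraries. Tram1 rose against GF ICH day 3 and SPF ICH day 7, by 2.36 ± 0.45 against GF ICH day 3 and 1.87 ± 0.44 against SPF ICH day 7 (log2 fold change ± SE). Tram1 had edgeR adjusted p = 0.00210 and 0.0101 in that order. Against the more scattered GF sham libraries its value of 1.20 ± 0.44 missed the threshold (edgeR adjusted p = 0.0639). In ABX ICH day 7 it had 2552, 798 and 998 CPM, against 271, 331 and 273 in ABX ICH day 3 and 295, 306 and 265 in ABX sham. Replicate 1 was the highest, and the lowest ABX ICH day 7 library still stood above every ABX ICH day 3 and ABX sham library. The rises were 2.33 ± 0.45 against ABX sham, 2.31 ± 0.45 against ABX ICH day 3 and 2.37 ± 0.45 against SPF ICH day 7 (log2 fold change ± SE). Tram1 had edgeR adjusted p = 0.00894, 0.0104 and 0.0403 in that order. It was the 1 ER gene that passed in ABX ICH day 7 against SPF ICH day 7. Genes of at least 100 CPM had medians of 1.04, 1.04 and 0.98 in the same order. Tram1 lost its call in ABX ICH day 7 against ABX sham without ABX ICH day 7 replicate 1 or any 1 ABX sham library (edgeR adjusted p up to 0.110). The Tram1 call in ABX ICH day 7 against ABX ICH day 3 was lost without any 1 ABX ICH day 3 library or ABX ICH day 7 replicate 1 (edgeR adjusted p up to 0.122). That of Tram1 in ABX ICH day 7 against SPF ICH day 7 was lost without ABX ICH day 7 replicate 1 or any 1 SPF ICH day 7 library (edgeR adjusted p up to 0.352).

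The channel is built from Sec61a1, the pore, with the small subunits Sec61b and Sec61g. Sec61b had 344, 155 and 271 CPM in GF ICH day 7, against 72.4, 89.7 and 72.1 in GF ICH day 3, 149, 158 and 90.8 in GF sham and 67.9, 49.5 and 88.7 in SPF ICH day 7. Replicate 2 of GF ICH day 7 lay within the GF sham range, and no library overlapped with GF ICH day 3 or SPF ICH day 7. Sec61b rose by 1.72 ± 0.58 against GF ICH day 3 and 1.901 ± 0.58 against SPF ICH day 7 (log2 fold change ± SE). Sec61b had edgeR adjusted p = 0.0454 and 0.0329 in that order, and 0.221 against GF sham. Sec61b lost its call against GF ICH day 3 without any 1 GF ICH day 3 library or GF ICH day 7 replicates 1 or 3 (edgeR adjusted p up to 0.140). The Sec61b call against SPF ICH day 7 was lost without GF ICH day 7 replicates 1 or 3 or any 1 SPF ICH day 7 library (edgeR adjusted p up to 0.134). Sec61a1 had 0.379, 1.15 and 121 CPM in GF ICH day 7, against 93.4, 92.3 and 106 in GF ICH day 3, 546, 52.2 and 79.0 in GF sham and 26.4, 48.3 and 68.5 in SPF ICH day 7. Replicates 1 and 2 of GF ICH day 7 were near 0 while replicate 3 lay above every library of GF ICH day 3 and SPF ICH day 7, and the gene passed in none of the 3 comparisons (edgeR adjusted p = 0.210 against GF sham). Sec61g had 71.5, 109 and 45.9 CPM in GF ICH day 7, against 0, 16.2 and 22.0 in GF sham (log2 fold change 2.56 ± 1.62 (SE), edgeR adjusted p = 0.246). Sec62, which with Sec63 handles chains imported after translation, had 714, 535 and 304 CPM in GF ICH day 7, against 4.27, 256 and 142 in GF sham (log2 fold change 1.95 ± 0.77 (SE), edgeR adjusted p = 0.0888). For both, every GF ICH day 7 library was above every GF sham library and GF sham replicate 1 was near or at 0, and neither passed in any comparison.

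Sec63, which works with Sec62 in import after translation and recruits the chaperone BiP to the channel, was the 1 translocon gene that fell. It had 0, 0.226 and 0 CPM in GF ICH day 7, against 29.6, 31.6 and 26.4 in GF ICH day 3, 0.846, 38.4 and 15.9 in GF sham and 21.5, 29.1 and 19.9 in SPF ICH day 7. All GF ICH day 7 libraries lay below the other 9, with GF sham replicate 1 the nearest to them. The fall was -7.88 ± 1.82 against GF sham, -8.55 ± 1.87 against GF ICH day 3 and -8.23 ± 1.85 against SPF ICH day 7 (log2 fold change ± SE). Sec63 had edgeR adjusted p = 0.00605, 0.00518 and 0.00771 in that order. Its values were 0.948, 105 and 216 CPM in ABX ICH day 7, against 19.2, 24.7 and 25.5 in ABX sham, with replicate 1 below and replicates 2 and 3 above all 3 shams, and the gene did not pass (edgeR adjusted p = 0.304).

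The 4 genes of the translocon-associated protein complex, Ssr1 to Ssr4, assist the entry of selected chains. Ssr2 had 449, 302 and 561 CPM in GF ICH day 7, against 281, 338 and 245 in GF ICH day 3, 167, 61.7 and 199 in GF sham and 195, 223 and 231 in SPF ICH day 7. It stood above GF sham without overlap and rose there (log2 fold change 1.62 ± 0.43 (SE), edgeR adjusted p = 0.0147), while GF sham replicate 2 was the lowest of all 27 libraries and the values against GF ICH day 3 (0.60 ± 0.42) and SPF ICH day 7 (1.01 ± 0.43) did not pass. Ssr2 lost its call against GF sham without GF ICH day 7 replicate 3 or GF sham replicate 2 (edgeR adjusted p up to 0.0711). Ssr1, Ssr3 and Ssr4 passed in no comparison. Their levels ranged from 74.6 to 262 CPM for Ssr1, 104 to 292 for Ssr3 and 344 to 679.7 for Ssr4 in GF ICH day 7, against 2.46 to 54.7, 46.9 to 354 and 4.92 to 344 in GF sham, in the same order.

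None of the 5 signal recognition particle genes passed in any comparison. Srp9 and Srp14 form the domain that slows translation, Srp54a binds the signal sequence, Srp72 is a structural subunit and Srprb anchors the receptor. Srp9 came closest against GF sham, with 393, 465 and 314 CPM in GF ICH day 7 and 201, 114 and 201 in GF sham, which do not overlap (log2 fold change 1.18 ± 0.59 (SE), edgeR adjusted p = 0.163). In ABX ICH day 7 against ABX sham the closest was Srp14, with 769, 428 and 218 CPM in ABX ICH day 7 and 176, 203 and 127 CPM in ABX sham (log2 fold change 1.48 ± 0.53 (SE), edgeR adjusted p = 0.163). The other log2 fold changes in GF ICH day 7 against GF sham were 0.38 ± 0.52 for Srp14, 1.81 ± 1.15 for Srp54a, -1.46 ± 1.00 for Srp72 and 0.66 ± 1.25 for Srprb (± SE). Srp54a counts are uncertain because Srp54b and Srp54c are near-identical copies.

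Oligosaccharyltransferase, which adds N-linked sugars, held the most genes that fell in GF ICH day 7 against GF sham, 4 of its 7, with a role median of -1.74. Stt3b, a catalytic subunit that can add sugars after a chain has entered the ER, had 0, 0.376 and 0.168 CPM in GF ICH day 7, against 28.4, 50.1 and 40.1 in GF ICH day 3, 0.322, 91.1 and 14.2 in GF sham and 43.1, 23.4 and 20.4 in SPF ICH day 7. GF ICH day 7 was at or near 0 throughout, and GF sham replicate 1 was as low. The fall was -7.58 ± 1.80 against GF sham, -7.75 ± 1.81 against GF ICH day 3 and -7.30 ± 1.77 against SPF ICH day 7 (log2 fold change ± SE). Stt3b had edgeR adjusted p = 0.00700, 0.00736 and 0.0115 in that order. Stt3a, the catalytic subunit that acts during translocation, had 495, 1647 and 682 CPM in GF ICH day 7, against 212, 307 and 194 in GF ICH day 3, 829, 204 and 187 in GF sham and 346, 240.3 and 250.3 in SPF ICH day 7. It rose against GF ICH day 3 (log2 fold change 1.99 ± 0.66 (SE), edgeR adjusted p = 0.0445), a direction that turned with GC offsets (-0.13), and did not pass against GF sham or SPF ICH day 7. Stt3a lost its call against GF ICH day 3 without any 1 GF ICH day 3 library or GF ICH day 7 replicates 2 or 3 (edgeR adjusted p up to 0.198).

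The ribophorins Rpn1 and Rpn2 and Ddost are subunits without catalytic activity. Rpn2 had 105, 3.29 and 1.09 CPM in GF ICH day 7, against 630.4, 411 and 669 in GF ICH day 3, 583, 441 and 393 in GF sham and 362, 442 and 356 in SPF ICH day 7. The GF ICH day 7 libraries were all lower but differed among themselves by far more than those of other groups. The fall of Rpn2 was -3.69 ± 1.19 against GF sham and -3.97 ± 1.21 against GF ICH day 3 (log2 fold change ± SE). Rpn2 had edgeR adjusted p = 0.0392 and 0.0295 in that order. Compared with SPF ICH day 7 it did not pass (edgeR adjusted p = 0.0566). Rpn2 lost its call against GF sham without GF ICH day 7 replicates 2 or 3 or any 1 GF sham library (edgeR adjusted p up to 0.104). The Rpn2 call against GF ICH day 3 was lost without GF ICH day 3 replicates 1 or 3 or GF ICH day 7 replicates 2 or 3 (edgeR adjusted p up to 0.0814). Rpn1 had 163, 88.0 and 117 CPM in GF ICH day 7, against 555, 378 and 507 in GF ICH day 3, 574, 249 and 409 in GF sham and 278, 490.0 and 327 in SPF ICH day 7, all of them higher than GF ICH day 7. Its changes were -1.74 ± 0.47 against GF sham, -1.97 ± 0.47 against GF ICH day 3 and -1.57 ± 0.47 against SPF ICH day 7 (log2 fold change ± SE). Rpn1 had edgeR adjusted p = 0.0152, 0.00845 and 0.0293 in that order. The changes lie 0.36, 0.52 and -0.01 from the medians of all tested genes in the same comparisons, while the medians of genes of at least 100 CPM were 0.26, 0.68 and 0.56. Rpn1 lost its call against GF sham without GF ICH day 7 replicates 2 or 3 (edgeR adjusted p up to 0.0614). The Rpn1 call against SPF ICH day 7 was lost without GF ICH day 7 replicates 2 or 3 or SPF ICH day 7 replicates 2 or 3 (edgeR adjusted p up to 0.123). Ddost had 68.1, 3.12 and 263 CPM in GF ICH day 7, against 659, 544 and 511 in GF ICH day 3 and 829, 385 and 437 in GF sham. Its fall was -2.30 ± 0.75 against GF sham and -2.36 ± 0.75 against GF ICH day 3 (log2 fold change ± SE). Ddost had edgeR adjusted p = 0.0405 and 0.0363 in that order. The fall lies -0.20 and 0.13 from the all-gene medians, and the abundant genes had the positive medians just given. Replicate 3 lay within the range of SPF ICH day 7, at 268, 346 and 251 CPM, where the gene did not pass (edgeR adjusted p = 0.183). Ddost lost its call against GF sham without GF ICH day 7 replicate 1 or GF sham replicates 1 or 3 (edgeR adjusted p up to 0.135). The Ddost call against GF ICH day 3 was lost without any 1 GF ICH day 3 library or GF ICH day 7 replicate 1 (edgeR adjusted p up to 0.122). The small subunits Ost4 and Dad1 passed in no comparison, with log2 fold changes of 0.36 ± 0.78 and -0.02 ± 0.43 (± SE) in GF ICH day 7 against GF sham.

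Calr fell and Canx rose among the lectin chaperones. Calr encodes calreticulin, the soluble lectin that retains unfinished glycoproteins. It had 168, 249 and 119 CPM in GF ICH day 7, against 629, 613 and 653 in GF ICH day 3, 727, 512 and 391 in GF sham and 444, 623 and 519 in SPF ICH day 7. Every GF ICH day 7 library was below every other. The fall was -1.60 ± 0.39 against GF sham, -1.82 ± 0.39 against GF ICH day 3 and -1.56 ± 0.39 against SPF ICH day 7 (log2 fold change ± SE). Calr had edgeR adjusted p = 0.00806, 0.00453 and 0.0125 in that order. Set against the medians of all tested genes the values were 0.50, 0.67 and -0.01, but genes of at least 100 CPM, to which Calr belongs, had medians above 0 (0.26, 0.68 and 0.56). Calr lost its call against GF sham without GF ICH day 7 replicate 3 (edgeR adjusted p up to 0.0510). The Calr call against SPF ICH day 7 was lost without GF ICH day 7 replicate 3 (edgeR adjusted p up to 0.0663). In ABX ICH day 7 it ranged from 304 to 1051 CPM, against 327 to 392 in ABX sham (edgeR adjusted p = 0.180). Canx, the membrane-bound counterpart calnexin, had 345, 868 and 407 CPM in GF ICH day 7, against 172, 173 and 179.8 in GF ICH day 3, 644, 139 and 136 in GF sham and 270.1, 197 and 247 in SPF ICH day 7. It rose against GF ICH day 3 (log2 fold change 1.63 ± 0.52 (SE), edgeR adjusted p = 0.0366), which turned to -0.23 with GC offsets. It did not pass in ABX ICH day 7 against ABX sham (log2 fold change 1.97 ± 0.52 (SE), edgeR adjusted p = 0.0699). Canx lost its call against GF ICH day 3 without any 1 GF ICH day 3 library or GF ICH day 7 replicates 2 or 3 (edgeR adjusted p up to 0.177).

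The disulfide isomerases gave 1 call. P4hb had 38.4, 321 and 283 CPM in GF ICH day 7, against 532, 556 and 573 in GF ICH day 3, 2016, 552 and 357 in GF sham and 231, 297 and 368 in SPF ICH day 7. GF sham replicate 1 was the highest of all 27 libraries. P4hb fell against GF sham (log2 fold change -2.19 ± 0.69 (SE), edgeR adjusted p = 0.0352), which is -0.08 from the median of all tested genes (0.26 for genes of at least 100 CPM), and not against GF ICH day 3 (edgeR adjusted p = 0.146) or SPF ICH day 7 (edgeR adjusted p = 0.650). P4hb lost its call against GF sham without GF ICH day 7 replicates 1 or 3 or GF sham replicate 1 (edgeR adjusted p up to 0.248). Pdia3, the isomerase partner of both lectins, Pdia4 and Pdia6 passed in no comparison. Against GF sham their log2 fold changes in GF ICH day 7 were 0.39 ± 0.38, -1.33 ± 0.63 and 0.05 ± 0.43 (± SE), and Pdia6 ranged from 273 to 1867 CPM in GF ICH day 7, against 651 to 1269 in GF sham.

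Promoters bear on these genes because ATF6 and XBP1 act through ER stress response elements, so the RefSeq window from 250 bases before to 50 after each start (GRCm38.p6) was searched on both strands in the 38 members with an entry. The element ERSE, written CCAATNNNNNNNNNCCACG, was present in 4 of the 38 (10.5%), against 0.137% of 27025 genes, and the shorter ERSE-II, ATTGGNCCACG, in 1 (2.63%), against 0.0444% of genes. The 5 windows are shown because these genes did not move together; capitals mark the fixed letters of the element, and letters follow the gene's strand.
Calr, chr8:84847055-84847113, minus strand: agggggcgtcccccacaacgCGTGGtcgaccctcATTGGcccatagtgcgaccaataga
Canx, chr11:50325780-50325838, minus strand: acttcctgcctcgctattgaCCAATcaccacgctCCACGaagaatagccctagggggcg
Pdia6, chr12:17266471-17266529, plus strand: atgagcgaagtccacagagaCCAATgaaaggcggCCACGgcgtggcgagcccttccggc
Syvn1, chr19:6046512-6046570, plus strand: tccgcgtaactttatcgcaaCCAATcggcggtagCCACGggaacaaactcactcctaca
Herpud1, chr8:94386357-94386407, plus strand: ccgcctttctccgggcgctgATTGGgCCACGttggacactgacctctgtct
Calr carries ERSE as its reverse complement, Canx, Pdia6 and Syvn1 carry it forward, and Herpud1 carries ERSE-II. The 5 genes had no common direction in GF ICH day 7 against GF sham: Calr and Syvn1 fell, and Canx (0.82), Pdia6 (0.05) and Herpud1 (-1.35, log2 fold changes) did not pass. The cores of the unfolded protein response element, TGACGTGG, and of the ATF4 and CHOP element, TGATGNAAT, were in 0 of the 38 windows, against 0.714% and 1.08% of genes. Both ERSE forms end in CCACG, which alone was in 25 of the 38 windows (65.8%), against 35.5% of genes. A match is a stretch of letters and not a measured binding site.

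Of the 6 unfolded protein response genes, Atf4 and Atf6 fell in GF ICH day 7 against GF sham, and the median log2 fold change of the 6 was -2.82. Atf4, the transcription factor produced when PERK slows translation, is on chromosome 15 (80255184 to 80257541, mm10). It had 0.337, 0.602 and 0.400 CPM in GF ICH day 7, against 53.9, 74.9 and 50.8 in GF ICH day 3, 246, 27.01 and 26.66 in GF sham and 43.1, 44.8 and 40.5 in SPF ICH day 7. The GF ICH day 7 libraries were all below 1 CPM and the other 9 all above 20 CPM. The fall was -7.80 ± 1.37 against GF sham, -7.06 ± 1.32 against GF ICH day 3 and -6.58 ± 1.29 against SPF ICH day 7 (log2 fold change ± SE). Atf4 had edgeR adjusted p = 0.000760, 0.00179 and 0.00372 in that order, and relative to all tested genes it was -5.69, -4.57 and -5.02. Genes of 10 to 100 CPM had medians of -0.76, -0.26 and -0.20. In ABX ICH day 7 Atf4 had 28.9, 0.433 and 8.72 CPM, against 54.3, 57.3 and 47.7 in ABX ICH day 3 and 70.6, 77.2 and 34.0 in ABX sham, and did not pass (edgeR adjusted p = 0.226 against ABX sham).

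Atf6, the membrane sensor whose cleaved part enters the nucleus, had 0.189, 0.244 and 0 CPM in GF ICH day 7, against 11.7, 31.2 and 21.1 in GF ICH day 3, 0.161, 8.93 and 6.91 in GF sham and 5.87, 19.2 and 10.5 in SPF ICH day 7. GF sham replicate 1 was as low as GF ICH day 7. The fall was -5.18 ± 1.60 against GF sham, -7.18 ± 1.75 against GF ICH day 3 and -6.33 ± 1.69 against SPF ICH day 7 (log2 fold change ± SE). Atf6 had edgeR adjusted p = 0.0315, 0.00911 and 0.0173 in that order. Atf6 lost its call against GF sham without any 1 GF ICH day 7 library or GF sham replicate 2 (edgeR adjusted p up to 0.0895). The Atf6 call against SPF ICH day 7 was lost without GF ICH day 7 replicates 1 or 3 (edgeR adjusted p up to 0.0568). The ABX ICH day 7 libraries, at 0.427, 0.144 and 2.81 CPM, were below the 11.7 to 27.7 CPM of ABX sham but did not pass (log2 fold change -3.96 ± 1.51 (SE), edgeR adjusted p = 0.185).

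Xbp1, the factor spliced by IRE1, had 321, 333 and 398 CPM in GF ICH day 7, against 408, 324 and 542 in GF ICH day 3, 537, 390.5 and 508 in GF sham and 262, 548 and 296 in SPF ICH day 7. The ranges overlap, and it did not pass against GF sham (log2 fold change -0.45 ± 0.44 (SE), edgeR adjusted p = 0.459). Gene counts do not separate its spliced and unspliced forms. Ddit3, which encodes CHOP, had 15.7, 0.865 and 76.2 CPM in GF ICH day 7, against 43.7, 81.9 and 57.0 in GF ICH day 3, 16.5, 14.4 and 64.7 in GF sham and 54.1, 56.9 and 48.6 in SPF ICH day 7. Replicate 2 lay below all controls and replicates 1 and 3 within their range, and it did not pass against GF sham (log2 fold change -0.04 ± 1.35 (SE), edgeR adjusted p = 1.00). Ddit3 overlaps Mars on the other strand. The sensors were sparsely counted: Ern1 (IRE1) was at 0 in 11 of 27 libraries and Eif2ak3 (PERK) in 6. Eif2ak3 had 0, 0.0752 and 0 CPM in GF ICH day 7, against 0, 0.0871 and 6.83 in GF sham, and Ern1 had 0, 7.46 and 0, against 0, 0 and 0.655. Neither passed in any edgeR comparison.

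Of the 3 genes of ER-associated degradation, Sel1l and Syvn1 fell in GF ICH day 7. They encode the adaptor and the ubiquitin ligase (HRD1) of 1 complex. Sel1l had 0.337, 1.09 and 0.315 CPM in GF ICH day 7, against 131, 151 and 156 in GF ICH day 3, 0.564, 39.6 and 79.6 in GF sham and 110.2, 167 and 87.3 in SPF ICH day 7. Apart from GF sham replicate 1, at the same level, the other libraries were far above GF ICH day 7. The fall was -6.10 ± 1.42 against GF sham, -7.97 ± 1.55 against GF ICH day 3 and -7.70 ± 1.53 against SPF ICH day 7 (log2 fold change ± SE). Sel1l had edgeR adjusted p = 0.00635, 0.00246 and 0.00391 in that order. Syvn1 had 0 counts in all 3 GF ICH day 7 libraries, against 14.96, 3.81 and 12.02 CPM in GF ICH day 3, 0, 131 and 13.6 in GF sham and 11.4, 3.91 and 2.55 in SPF ICH day 7. With 3 counts per library in place of 0, it was at least 169-fold lower than in GF ICH day 3, 792-fold lower than in GF sham, where replicate 2 supplies most of the mean and replicate 1 is at 0, and 97.8-fold lower than in SPF ICH day 7 (edgeR adjusted p = 0.00936, 0.00444 and 0.0143 in that order). Syvn1 lost its call against SPF ICH day 7 without GF ICH day 7 replicate 3 (edgeR adjusted p up to 0.0545). In ABX ICH day 7 Syvn1 was at 0 in replicates 1 and 2 and did not pass against ABX sham (edgeR adjusted p = 0.227). Syvn1 overlaps Mrpl49, and their reads may not be separable. Herpud1, a stress-induced partner of the complex, had 85.7, 188 and 179 CPM in GF ICH day 7, against 349.6, 183 and 392 in GF ICH day 3 and 443, 337 and 372 in GF sham, and did not pass (log2 fold change -1.35 ± 0.56 (SE), edgeR adjusted p = 0.104).

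Slc35b2 was the 1 ER gene that fell in ABX ICH day 7. It carries the sulfate donor PAPS into the Golgi and lies on chromosome 17 (45563874 to 45567671, mm10). It had 4.60, 1.66 and 11.8 CPM in ABX ICH day 7, against 338, 101 and 169 in ABX ICH day 3, 205, 204 and 143 in ABX sham and 35.5, 115 and 121 in SPF ICH day 7. All 3 ABX ICH day 7 libraries lay below the other 9. Slc35b2 fell by 4.94 ± 0.89 against ABX sham and 5.07 ± 0.90 against ABX ICH day 3 (log2 scale ± SE, edgeR adjusted p = 0.00550 and 0.00512 in that order), and against SPF ICH day 7 the value of -3.91 ± 0.85 missed the threshold (edgeR adjusted p = 0.0683). In GF ICH day 7 it had 334, 114 and 126 CPM against 1051, 130.4 and 259 in GF sham and did not pass (log2 fold change -1.33 ± 0.77 (SE), edgeR adjusted p = 0.213). Slc35b2 has the highest GC content of the 44 genes, 59.8%. Slc35b1, which exchanges ATP across the ER membrane, passed in no comparison. The panels of 6 genes show these per-library levels.

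**Figure D2:**
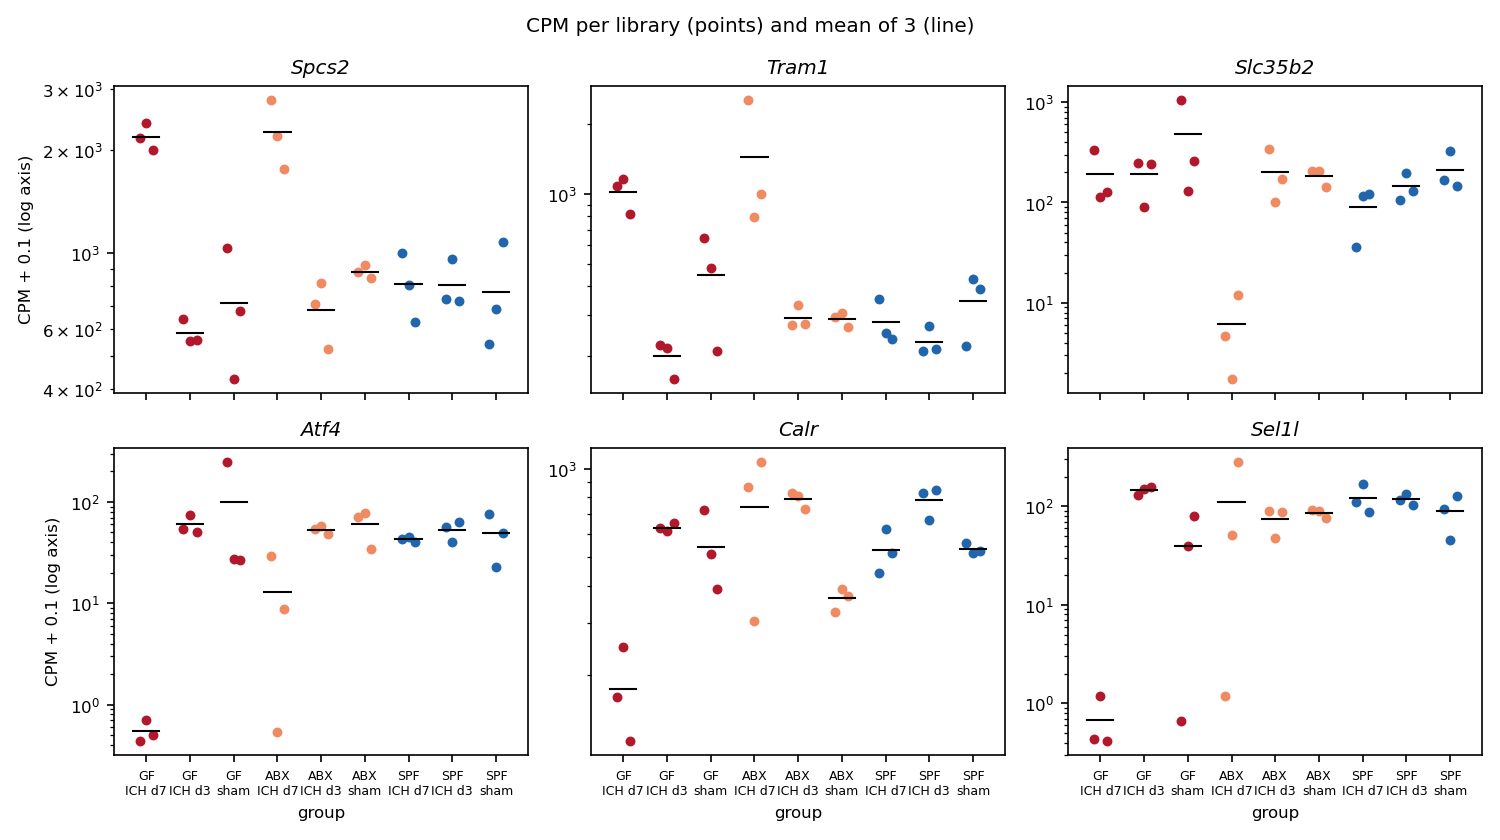
Points are CPM + 0.1 of each library on a log axis for Spcs2, Tram1, Slc35b2, Atf4, Calr and Sel1l in the 9 groups, and the line is the mean of 3. Spcs2 and Tram1 are high in the ICH day 7 groups of ABX and GF mice, Slc35b2 is lowest in the 3 ABX ICH day 7 libraries, and Atf4, Calr and Sel1l are low in all 3 GF ICH day 7 libraries.

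Setting the import machinery beside the stress response compares both classes within each library. The value used is the median of the 15 translocon and signal peptidase genes minus the median of the 6 unfolded protein response genes, each gene as log2 CPM minus its own mean over the 27 libraries. It was 5.46, 5.29 and 5.39 in GF ICH day 7 and 3.87, 4.75 and 2.004 in ABX ICH day 7. The values were -1.18, -1.55 and -1.83 in GF ICH day 3, 0.73, 0.14 and -0.51 in GF sham, -1.34, -0.25 and 0.12 in ABX ICH day 3 and -1.03, -1.23 and -1.84 in ABX sham. The SPF groups had -0.51, -1.57 and -0.63 on ICH day 7, -1.37, 0.02 and -1.32 on ICH day 3 and -2.32, -0.56 and -1.65 in sham. All 6 day 7 ICH libraries of GF and ABX mice were higher than the other 21. As group means, GF ICH day 7 was at 5.38 ± 0.08 and ABX ICH day 7 at 3.54 ± 1.40, against -1.52 ± 0.33 in GF ICH day 3, 0.12 ± 0.62 in GF sham, -1.37 ± 0.42 in ABX sham and -0.90 ± 0.58 in SPF ICH day 7 (SD, n = 3 each). The difference is a description with no test, and it rests on both classes: the import class was at 1.304 ± 0.18 in GF ICH day 7 and -0.61 ± 0.75 in GF sham, and the stress class at -4.07 ± 0.25 in GF ICH day 7 and -0.73 ± 1.35 in GF sham. Of the 6 stress genes, 5 had a median under 100 CPM over the 27 libraries, and 1, Xbp1, was above it. In GF ICH day 7 against GF sham, the median log2 fold change of all tested genes was -4.24 under 10 CPM and -0.76 at 10 to 100 CPM. In ABX ICH day 7 against ABX sham, it was -3.18 under 10 CPM and 0.10 at 10 to 100 CPM. The mean in place of the median gave a GF ICH day 7 minus GF sham difference of 3.66 in place of 5.26, GC offsets gave 3.64, and the ABX ICH day 7 minus ABX sham difference of 4.91 became 2.75 with the mean. The edgeR log2 fold changes, whose medians are taken over genes and not within a library, lay closer together in ABX mice. Their median in ABX ICH day 7 against ABX sham was 0.92 for the import class and -0.64 for the stress class. Against ABX ICH day 3 it was 1.13 and 0.24, and in GF ICH day 7 against GF sham 1.61 and -2.82.

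**Figure D3:**
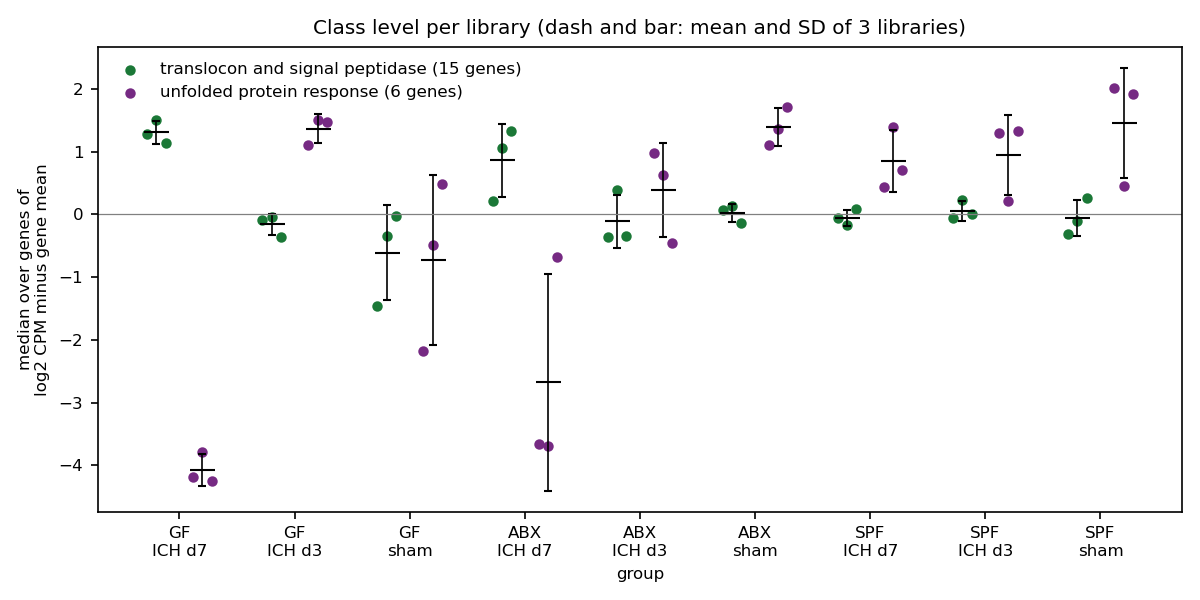
Points are the median over genes of log2 CPM minus the gene mean in each library for the 15 translocon and signal peptidase genes (green) and the 6 unfolded protein response genes (purple), with mean and SD of 3 libraries. The classes separate in opposite directions in GF ICH day 7 and, with more spread, in ABX ICH day 7.

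Whether germ-free mice answered the bleed differently from SPF mice was tested with the interaction of microbial state and surgery. For day 7, 7 of the 44 genes passed, 2 higher and 5 lower, where 7.04% of all genes passed (0.285% higher and 6.76% lower). Spcs2 (1.53 ± 0.46) and Spcs3 (4.06 ± 1.15) had a larger response in GF than in SPF mice (log2 difference ± SE, edgeR adjusted p = 0.0430 and 0.0360). The 5 with a lower response were Sec63 (-7.47 ± 2.13), Stt3b (-7.86 ± 2.14), Atf4 (-7.59 ± 1.60), Sel1l (-6.54 ± 1.76) and Syvn1, with edgeR adjusted p = 0.0366, 0.0297, 0.00768, 0.0278 and 0.0186 in that order. In SPF mice neither Atf4 nor Sel1l passed: Atf4 had 43.1, 44.8 and 40.5 CPM in SPF ICH day 7, against 76.7, 22.7 and 49.2 in SPF sham, and Sel1l had 110.2, 167 and 87.3 CPM in SPF ICH day 7, against 93.7, 44.9 and 129 in SPF sham. Atf4 kept its interaction with each of the 12 libraries left out in turn (edgeR adjusted p at most 0.0468). It lost that interaction with limma voom, with GC offsets and with the fit on the 4 groups alone. Sec63 lost it without GF ICH day 7 replicates 1 or 3, GF sham replicate 2, any 1 SPF ICH day 7 library or any 1 SPF sham library (up to 0.104). Spcs2 lost it without any 1 GF ICH day 7 library, GF sham replicates 2 or 3, any 1 SPF ICH day 7 library or any 1 SPF sham library (up to 0.179). Spcs3 lost it without GF ICH day 7 replicates 1 or 2, GF sham replicate 3, any 1 SPF ICH day 7 library or any 1 SPF sham library (up to 0.0933). Stt3b lost it without GF ICH day 7 replicate 3, GF sham replicate 2, SPF ICH day 7 replicate 1 or any 1 SPF sham library (up to 0.111). Sel1l lost it without GF ICH day 7 replicates 1 or 3, GF sham replicate 3, SPF ICH day 7 replicate 2 or any 1 SPF sham library (up to 0.0897). Syvn1 lost it without any 1 SPF sham library (up to 0.0801). For the ABX minus SPF response on day 7, 0 of 44 passed by edgeR (all genes 0%), with 7 at an unadjusted p under 0.05, 0 by limma voom and 2 by DESeq2, Tram1 and Slc35b2. With edgeR fitted on the 4 groups alone, the GF minus SPF interaction gave 0 ER genes, with 59 genes of the whole table passing and 2956 at an unadjusted p under 0.05.

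Before day 7, and in SPF mice at either day, no ER gene passed the edgeR threshold. The shares of all tested genes that passed were 0.102% in SPF ICH day 3 against SPF sham, 0.0797% in SPF ICH day 7 against SPF sham, 0.125% in ABX ICH day 3 against ABX sham and 0.00569% in GF ICH day 3 against GF sham, and 0% in SPF ICH day 7 against SPF ICH day 3. At an unadjusted p under 0.05 the ER genes numbered 1, 0, 2, 3 and 0. DESeq2 called 0 in each of these 5, and limma voom called 0 in each but ABX ICH day 3, where it called Ssr2 and Calr. In SPF ICH day 3 against SPF sham, Sec61b had 84.3, 119 and 99.6 CPM against 40.5, 29.7 and 57.9 in sham, which do not overlap (log2 fold change 1.24 ± 0.57 (SE), edgeR adjusted p = 0.659). Calr had 827, 672 and 845 CPM in SPF ICH day 3, against 561, 519 and 526 in SPF sham (log2 fold change 0.55 ± 0.38 (SE), edgeR adjusted p = 0.850). The other genes with the smallest p of their roles were Sec11a (-0.61 ± 1.00), Srp9 (-0.73 ± 0.58), Ddost (0.54 ± 0.71), Xbp1 (-0.60 ± 0.44), Herpud1 (-0.78 ± 0.55) and Slc35b2 (-0.55 ± 0.76, log2 fold change ± SE).

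In antibiotic-treated mice at day 3, Calr had 825, 805 and 731 CPM in ABX ICH day 3, against 327, 392 and 369.5 in ABX sham, without overlap, and edgeR did not call it (log2 fold change 1.12 ± 0.38 (SE), edgeR adjusted p = 0.591). Ssr2 had 316, 405 and 500.2 CPM in ABX ICH day 3, against 224, 213 and 176 in ABX sham, also without overlap (log2 fold change 0.99 ± 0.43 (SE), edgeR adjusted p = 0.591). Both were called by limma voom, and both by edgeR when the 7 sparse libraries were left out. The other genes with the smallest p of their roles in ABX ICH day 3 against ABX sham were Spcs2 (-0.37 ± 0.32), Srp72 (-0.66 ± 0.98), Stt3b (2.003 ± 1.39), Xbp1 (-0.76 ± 0.44), Herpud1 (-0.79 ± 0.55) and Slc35b1 (0.67 ± 1.13, log2 fold change ± SE). In GF ICH day 3 against GF sham they were Tram1 (-1.16 ± 0.44), Sec11c (0.52 ± 0.41), Srp72 (-2.38 ± 1.03), Ost4 (-0.998 ± 0.78), Pdia4 (-1.15 ± 0.63), Atf6 (1.997 ± 1.39), Sel1l (1.87 ± 1.18) and Slc35b2 (-1.32 ± 0.77, log2 fold change ± SE). Sec11c, Srp72 and Pdia4 changed sign there without the 2 sparse GF sham libraries. In SPF ICH day 7 against SPF sham they were Sec61b (0.69 ± 0.56), Spcs3 (-0.51 ± 0.79), Srp9 (-0.56 ± 0.58), Stt3a (-0.37 ± 0.64), Pdia4 (-0.14 ± 0.62), Atf6 (-1.80 ± 1.38), Herpud1 (-0.50 ± 0.55) and Slc35b2 (-1.22 ± 0.77). Atf6 had 5.87, 19.2 and 10.5 CPM in SPF ICH day 7, against 34.7, 31.4 and 58.0 in SPF sham, and Slc35b2 had 35.5, 115 and 121 CPM in SPF ICH day 7, against 166, 322 and 147 in SPF sham. Neither pair of groups overlapped, and neither gene passed.

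No ER gene passed between mice of different microbial state in sham or at ICH day 3. In ABX sham against SPF sham the share of all genes that passed was 0%, in ABX ICH day 3 against SPF ICH day 3 0%, in GF sham against SPF sham 0.00569% and in GF ICH day 3 against SPF ICH day 3 0%. The ER genes at an unadjusted p under 0.05 were 0, 0, 3 and 0, and limma voom called 0 in all 4. DESeq2 called 0 except in GF sham against SPF sham, where it called Sec61b. Sec61b had 149, 158 and 90.8 CPM in GF sham, against 40.5, 29.7 and 57.9 in SPF sham, without overlap (log2 fold change 1.63 ± 0.58 (SE), edgeR adjusted p = 0.671). Calr, the smallest p in the ABX shams, had 327, 392 and 369.5 CPM in ABX sham, against 561, 519 and 526 in SPF sham, without overlap (log2 fold change -0.56 ± 0.38 (SE), edgeR adjusted p = 1.00). The other leading values were Sec61b (0.60 ± 0.56) and Srp14 (0.66 ± 0.52) in ABX sham, Ssr2 (0.47 ± 0.42), Srp9 (0.69 ± 0.58) and Ern1 (-4.09 ± 3.41) in ABX ICH day 3, Srp72 (2.31 ± 1.03) and P4hb (1.74 ± 0.68) in GF sham, and Spcs2 (-0.46 ± 0.32), Spcs3 (-1.05 ± 0.79) and Dad1 (0.62 ± 0.43) in GF ICH day 3 (log2 fold change ± SE, each against the SPF group of the same surgery and day). For the responses at day 3, 0 ER genes and 0% of all genes passed in the ABX minus SPF interaction, with 0 at an unadjusted p under 0.05 and 0 by DESeq2 and limma voom. In the GF minus SPF interaction at day 3, 0 ER genes and 0% of all genes passed, with 1 at an unadjusted p under 0.05, 0 by limma voom and 1, Sec61b, by DESeq2.

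Other genes of the same pathways were followed in 3 further lists. Of 15 other translocation and glycosylation genes, 3 rose and 2 fell in GF ICH day 7 against GF sham (list median 0.28; all tested genes -2.10). Ostc, a subunit of the Stt3a form of oligosaccharyltransferase, had 465 ± 92.7 CPM in GF ICH day 7 and 73.7 ± 68.2 CPM in GF sham (log2 fold change 2.66 ± 0.68 (SE), edgeR adjusted p = 0.0114). Magt1, which belongs to the Stt3b form, also rose (log2 fold change 2.58 ± 0.82 (SE), edgeR adjusted p = 0.0358), as did the ER sorting protein Bcap31 (log2 fold change 1.59 ± 0.51 (SE), edgeR adjusted p = 0.0381). Srp68, the partner of Srp72, had 0.216 ± 0.200 CPM in GF ICH day 7 and 18.4 ± 31.0 CPM in GF sham (SD, n = 3 each) and fell (log2 fold change -6.40 ± 1.81 (SE), edgeR adjusted p = 0.0198), and Srpr, the receptor subunit that binds the particle, fell as well (log2 fold change -3.44 ± 0.92 (SE), edgeR adjusted p = 0.0150). Against GF ICH day 3, 2 of the 15 rose (Ostc, Magt1) and Srp68 fell (log2 fold change -7.81 ± 1.92 (SE), edgeR adjusted p = 0.00971), and against SPF ICH day 7 Srp68 was the 1 that passed, lower (log2 fold change -7.78 ± 1.92 (SE), edgeR adjusted p = 0.0122). Srp68 lost its call against GF sham without GF ICH day 7 replicates 1 or 3 or GF sham replicate 3 (edgeR adjusted p up to 0.644). Magt1 lost its call against GF sham without GF ICH day 7 replicates 1 or 2 or GF sham replicate 3 (edgeR adjusted p up to 0.105). The Magt1 call against GF ICH day 3 was lost without any 1 GF ICH day 3 library or any 1 GF ICH day 7 library (edgeR adjusted p up to 0.148). Bcap31 lost its call against GF sham without GF ICH day 7 replicates 2 or 3 or GF sham replicates 1 or 2 (edgeR adjusted p up to 0.160). It also did not pass with DESeq2, limma voom, DESeq2 size factors, no filter, the replicate block or GC offsets. Magt1 did not pass against GF sham with DESeq2 size factors, no filter, the replicate block or GC offsets. Srp68 did not pass there with limma voom or GC offsets. Fitted on the groups compared only, none of the list's calls against GF sham passed. Ostc lost its call against GF ICH day 3 without any 1 GF ICH day 3 library or any 1 GF ICH day 7 library (edgeR adjusted p up to 0.115). Both Ostc and Magt1 lost that call with no filter and with GC offsets.

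Of 15 other targets of XBP1 and ATF6, 1 rose and 2 fell in GF ICH day 7 against GF sham. The list median was -0.55, beside -2.10 for all tested genes. In ABX ICH day 7 against ABX sham 0 of them passed, and the list median was 0.76, beside -0.79. Genes of at least 100 CPM had medians of 0.26 and 1.04 in these 2 comparisons. Hsp90b1, the ER chaperone GRP94, had 3268 ± 1432 CPM in GF ICH day 7 and 1024 ± 403 CPM in GF sham and rose (log2 fold change 1.67 ± 0.36 (SE), edgeR adjusted p = 0.00387). Os9, the lectin that hands glycoproteins to the Sel1l complex, had 0.374 ± 0.419 CPM in GF ICH day 7 and 237 ± 188 CPM in GF sham and fell (log2 fold change -9.30 ± 1.504 (SE), edgeR adjusted p = 0.000442), also against GF ICH day 3 (log2 fold change -8.47 ± 1.46 (SE), edgeR adjusted p = 0.000909), against SPF ICH day 7 (log2 fold change -7.58 ± 1.40 (SE), edgeR adjusted p = 0.00267) and in the GF minus SPF response (log2 fold change -9.44 ± 1.74 (SE), edgeR adjusted p = 0.00312). Hyou1, a chaperone of the same compartment, fell against GF sham (log2 fold change -10.89 ± 2.88 (SE), edgeR adjusted p = 0.0140). Against GF ICH day 3 the co-chaperone Dnajb9, the retrotranslocation protein Derl2 and Hsp90b1 rose (3.01, 1.79 and 1.505 log2 fold change, edgeR adjusted p = 0.0427, 0.0388 and 0.00847), and against SPF ICH day 7 Hsp90b1 rose (log2 fold change 1.07 ± 0.36 (SE), edgeR adjusted p = 0.0490). Hyou1 lost its call against GF sham without GF ICH day 7 replicates 1 or 3 or GF sham replicate 1 (edgeR adjusted p up to 0.133). Dnajb9 lost its call against GF ICH day 3 without any 1 GF ICH day 3 library or GF ICH day 7 replicates 1 or 3 (edgeR adjusted p up to 0.165). Derl2 lost its call against GF ICH day 3 without any 1 GF ICH day 3 library or any 1 GF ICH day 7 library (edgeR adjusted p up to 0.118). Hsp90b1 lost its call against SPF ICH day 7 without GF ICH day 7 replicates 2 or 3 or any 1 SPF ICH day 7 library (edgeR adjusted p up to 0.191). With DESeq2, with DESeq2 size factors and with GC offsets, Hsp90b1 passed in none of its comparisons. Dnajb9 and Derl2 did not pass against GF ICH day 3 with no filter or GC offsets, nor Derl2 with DESeq2 size factors. Hyou1 did not pass against GF sham with limma voom. Fitted on the groups compared only, none of the list's calls against GF sham passed.

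Of 12 other targets of ATF4 and CHOP, 1 passed in each comparison of ICH day 7 with sham in ABX and GF mice, and in both it was Psat1, an enzyme of serine synthesis, which was higher. It had 587 ± 153 CPM in ABX ICH day 7 and 16.9 ± 5.86 CPM in ABX sham (log2 fold change 5.12 ± 1.10 (SE), edgeR adjusted p = 0.0208), and 198 ± 115 CPM in GF ICH day 7 and 12.4 ± 17.1 CPM in GF sham (log2 fold change 3.99 ± 1.04 (SE), edgeR adjusted p = 0.0128). Asns, which makes asparagine, and Ppp1r15a, which reverses the PERK signal, fell in GF ICH day 7 against GF ICH day 3 (log2 fold change -8.53 and -7.27, edgeR adjusted p = 0.0218 and 0.0313) and against SPF ICH day 7 (-8.25 and -6.98, edgeR adjusted p = 0.0267 and 0.0390). Asns also passed in the GF minus SPF response at day 7 (log2 fold change -9.62 ± 2.91 (SE), edgeR adjusted p = 0.0457). Psat1 lost its call in ABX ICH day 7 against ABX sham without ABX ICH day 7 replicate 1 or any 1 ABX sham library (edgeR adjusted p up to 0.153). Asns lost its call against GF ICH day 3 without GF ICH day 7 replicates 2 or 3 (edgeR adjusted p up to 0.0785). The Asns call against SPF ICH day 7 was lost without any 1 GF ICH day 7 library or SPF ICH day 7 replicate 1 (edgeR adjusted p up to 0.0937). Its interaction was lost without any 1 GF ICH day 7 library, GF sham replicate 3, any 1 SPF ICH day 7 library or any 1 SPF sham library (edgeR adjusted p up to 0.139). Ppp1r15a lost its call against GF ICH day 3 without any 1 GF ICH day 3 library or any 1 GF ICH day 7 library (edgeR adjusted p up to 0.1002). The Ppp1r15a call against SPF ICH day 7 was lost without any 1 GF ICH day 7 library or SPF ICH day 7 replicates 2 or 3 (edgeR adjusted p up to 0.120). Both Ppp1r15a calls were also lost with limma voom and with GC offsets. The Psat1 call against GF sham was lost with limma voom and on the groups compared only. The Asns interaction was lost with limma voom, no filter, the replicate block, GC offsets and the groups compared only. The median log2 fold change of the 12 in GF ICH day 7 was -2.28 against GF sham, beside -2.10 for all tested genes.

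GC content moved with the changes of the ER genes and with those of the abundant genes of the whole table. Across the 44 genes the Spearman correlation of the log2 fold change with transcript GC content was -0.48 in GF ICH day 7 against GF sham and -0.37 in ABX ICH day 7 against ABX sham, beside -0.53 and -0.28 across 1649 genes of at least 100 CPM. These are descriptions across genes that share the same libraries. The sets differ, since 30 of the 44 ER genes are in the class of at least 100 CPM. In GF ICH day 7 against GF sham, the 5 higher genes had a median GC content of 46.6%, the 11 lower genes 50.9% and the 28 others 48.2%. Sec63, Sel1l and Atf6 fell with a GC content below the median of the 44 genes, at 43.5%, 47.7% and 46.0%, and Ssr2 rose with one above it, at 55.7%. When GC content was entered as an offset, 10 ER genes passed in GF ICH day 7 against GF sham in place of 16: Sec63, Stt3b, Atf4, Atf6, Sel1l and Syvn1 lower, and Sec61b, Ssr2, Ssr4 and Spcs2 higher. Spcs1, Spcs3, Sec11c, Calr, P4hb and the 3 other oligosaccharyltransferase genes no longer passed.

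**Figure D4:**
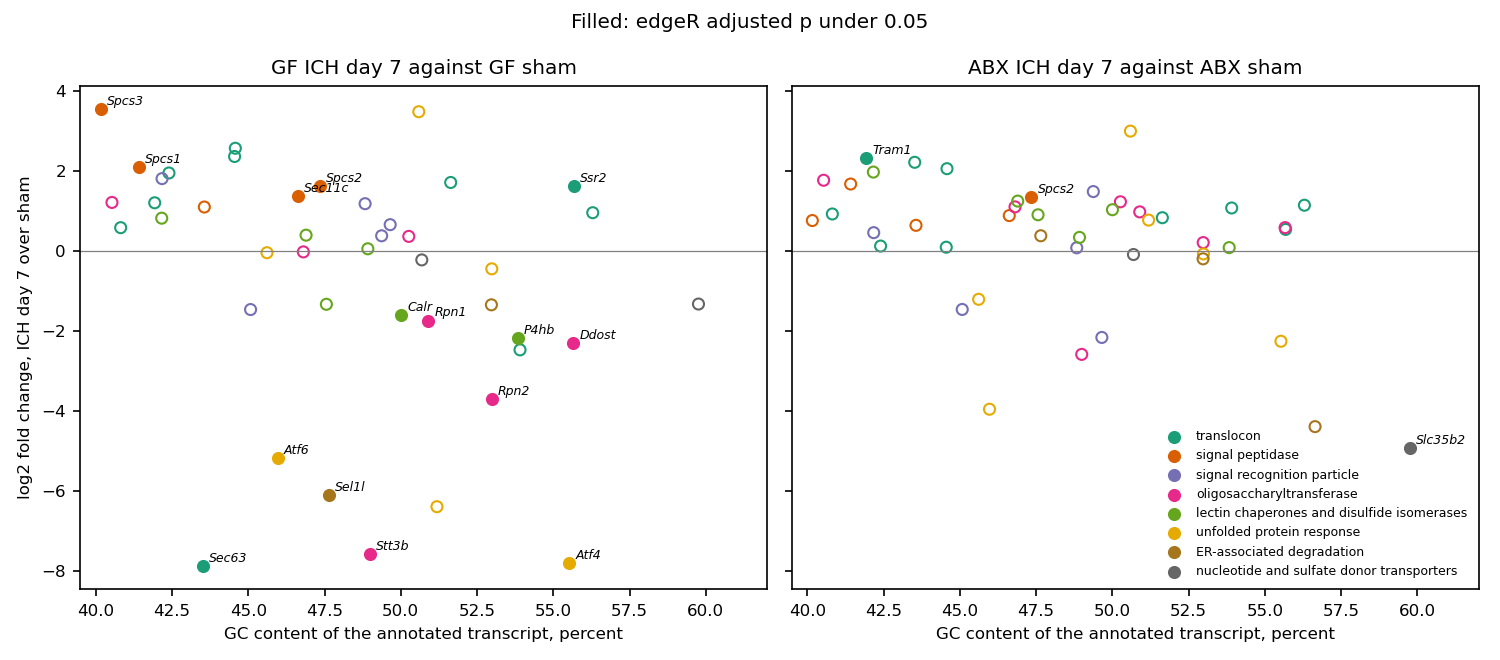
Each point is 1 of the 44 ER genes, with GC content of its annotated transcript in percent on the x axis and the log2 fold change of ICH day 7 over sham on the y axis, for GF mice (left) and ABX mice (right); Syvn1, at 0 counts in GF ICH day 7, is left out of the left panel. Filled points passed the edgeR threshold, and in GF mice the lower genes plotted start at 43.5% (Sec63).

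Results that rest on the sparse libraries were also computed without them. Without the 7 libraries under 12000 detected genes, ABX ICH day 7 is replicate 3 alone, assumed to vary like the other groups, and 13 ER genes passed against ABX sham, 7 higher and 6 lower, in place of 3. Among them Sec63 (2.94) and Sec61g (2.66) were higher and Srp9 (-2.77), Srprb (-4.01) and Atf4 (-3.07, log2 fold changes) lower, and Slc35b2 remained lower (-4.24). GF ICH day 7 has no library left in that fit, and the share of all tested genes that passed in it is not given here. In a fit chosen after seeing the data, which left out GF sham replicates 1 and 2 and kept replicate 3, assumed to vary like the other groups, 10 ER genes passed in GF ICH day 7 against GF sham: Tram1, Spcs2, Spcs3 and Canx higher, and Sec63, Stt3b, Atf4, Atf6, Sel1l and Syvn1 lower.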

How the data were processed

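RNA of sorted microglia, at picogram amounts per the labels' protocols, was amplified with a SMART-Seq v4 kit and sequenced as paired reads of 150 bases. The deposited table holds raw counts per gene, 1 column per library, which the authors made with tools that the submitters' processing notes list as cutadapt 1.9, HISAT2 2.0.4, StringTie 1.3.4d and edgeR on mm10. The annotation release and the strand setting of the counting are not given in the sources used here. Amplified reads without molecular identifiers are not independent molecules, so total counts overstate the precision of low genes.

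Of 56691 genes, 52073 had a symbol in GENCODE M21, and 17573 passed edgeR's filterByExpr and held 99.9% of the counts. One fit of 9 group means over 27 libraries (R 4.3.3, edgeR 4.0.16, TMM, robust quasi-likelihood, 18 residual degrees of freedom, common biological coefficient of variation 1.54) gave 19 comparisons: 15 between groups and 4 interactions. Benjamini-Hochberg adjustment ran over all genes tested, with a threshold of 0.05. SE is the log2 fold change over the square root of F. Where a group had 0 counts, 3 counts per library stood in its place for a bound. Promoter and motif values come from RefSeq, GRCm38.p6, with 38 of 44 members matched. The code was tested on simulated data, and the pass condition was set only on a run with less spread than these data.

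Alternatives were DESeq2 1.42.0, limma 3.58.1 (voom with quality weights), DESeq2 size factors, no filter, a replicate block, GC offsets, fits on the groups compared only, and leaving out libraries. A fit without the 2 sparse GF sham libraries was chosen after seeing the data. Libraries with the same replicate number did not deviate together, and weak correlations do not show whether they were handled together. The members and lists were chosen with earlier results of these data known. Values with tests are given for every member past the threshold, for the member with the smallest p of each role in each comparison of ICH with sham, for the 3 smallest p in each comparison of ABX or GF with SPF, and for called genes of the further lists. Tusc3 was not analysed here. Exons of 18 members overlap those of another gene, 4 of them on the same strand (Sec11a, Srprb, Pdia4 and Ddit3), and Srp54a has near-identical copies. Ddit3 has a second identifier, which had 0 counts.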

Additional observations from a re-analysis of the deposited data

Results flagged for a closer look

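The day 7 response to ICH differed between GF and SPF mice for 7 ER genes by edgeR's interaction test. The adjusted p was 0.0366 for Sec63, 0.0430 for Spcs2, 0.0360 for Spcs3, 0.0297 for Stt3b, 0.00768 for Atf4, 0.0278 for Sel1l and 0.0186 for Syvn1. The 3 GF ICH day 7 libraries that carry these values are all among the sparse ones.

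For 4 genes every library of the ICH group lay on one side of its shams in one microbial state and on the other side in another. The share of all tested genes that did so is not given here, so the pattern cannot be called particular to ER genes. Sec61b at ICH day 3 against sham had a GF minus SPF difference of -2.002 (log2), and the interaction did not pass (edgeR adjusted p = 0.841). Atf6 at ICH day 3 had a GF minus SPF difference of 3.30 (edgeR adjusted p = 0.932). Srp9 at ICH day 7 had a GF minus SPF difference of 1.74 (edgeR adjusted p = 0.189). Ddost at ICH day 7 had a GF minus ABX difference of -2.88, with 68.1, 3.12 and 263 CPM in GF ICH day 7 and 829, 385 and 437 in GF sham, and 389, 333 and 462 in ABX ICH day 7 and 295, 220.2 and 276 in ABX sham. That difference was not tested.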

How the results depend on the processing

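With 3 libraries a group, 9185 to 18408 detected genes and 7 sparse libraries, low counts limit what can be compared, and no fit could be made for GF ICH day 7 without its sparse libraries. Over all alternatives, 1295 values of named genes kept their direction and side of the threshold, 268 no longer passed, 20 newly passed and 21 changed sign. Of the calls, 1 of 16 in GF ICH day 7 against GF sham (Syvn1, not tested when only the groups compared were fitted) held under every alternative run, 8 of 17 against GF ICH day 3, 3 of 13 against SPF ICH day 7 and 0 in the ABX comparisons and the interaction. The cause of these changes was not tested.

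Against ABX sham (3 ER genes by edgeR in ABX ICH day 7) DESeq2 gave 9, limma voom 5, DESeq2 size factors 1 and no filter 1. A fit on the groups compared only gave 0 and the fit without the 7 sparse libraries 13. Against ABX ICH day 3 (3) the counts were 10 with DESeq2, 1 with DESeq2 size factors, 1 with no filter, 0 with the groups compared only and 16 without the sparse libraries. Against SPF ICH day 7 (1) they were 11 with DESeq2, 3 with limma voom, 0 with DESeq2 size factors, with no filter, with GC offsets, with the replicate block and with the groups compared only, and 14 without the sparse libraries. Where 1 gene remained it was Slc35b2, lower. The shares of all tested genes that passed under these alternatives are not given here, so the counts do not compare ER genes with other genes. For GF ICH day 7 against GF sham (16) GC offsets gave 10, no filter 9, the groups compared only 0, and the fit without GF sham replicates 1 and 2, chosen after seeing the data, 10. The GF minus SPF response at day 7 (7) gave 11 with DESeq2, 0 with the groups compared only and 4 (Tram1, Atf4, Sel1l and Syvn1) without those 2 libraries. Counts of 0 became 2 in ABX ICH day 3 against ABX sham (Ssr2 and Calr, with limma voom and without the sparse libraries), 1 in GF sham against SPF sham (Sec61b, DESeq2) and 1 in the GF minus SPF response at day 3 (Sec61b, DESeq2). The ABX minus SPF response at day 7 gave 2 with DESeq2 (Tram1 and Slc35b2) and 7 without the sparse libraries. With 1 library left out at a time the counts ran from 1 to 5 in ABX ICH day 7 against ABX sham, 1 to 4 against ABX ICH day 3 and 0 to 4 against SPF ICH day 7. They ran from 10 to 16 in GF ICH day 7 against GF sham, 11 to 15 against GF ICH day 3, 9 to 11 against SPF ICH day 7 and 1 to 8 in the GF minus SPF response at day 7.

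The difference between import and stress classes kept its sign throughout in the day 7 comparisons of GF and ABX mice. For GF ICH day 7 against GF sham, GF ICH day 3 and SPF ICH day 7 (5.26, 6.90 and 6.28) it was 3.64, 5.14 and 4.64 with GC offsets, 3.66, 4.70 and 4.05 with means and 5.72, 7.53 and 6.90 with a prior count of 0.5, and adding ER-associated degradation to the stress class gave 7.61 and 6.87 in the last 2. For ABX ICH day 7 against ABX sham, ABX ICH day 3 and SPF ICH day 7 (4.91, 4.03 and 4.44) it was 2.75, 1.97 and 2.53 with means and 3.37, 2.49 and 2.91 without the sparse libraries. In GF ICH day 3 against GF sham (-1.64) it was -1.04 with means and -1.01 without the sparse libraries.

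Some log2 fold changes of named genes changed sign, among them the calls of Stt3a and Canx in GF ICH day 7 against GF ICH day 3. With GC offsets these became -0.13 and -0.23, Slc35b2 (GF ICH day 7 against GF sham) became 0.96, and Ddost (SPF ICH day 3 against SPF sham) became -0.000503. With limma voom, Pdia4 in SPF ICH day 7 against SPF sham became 0.0488, and Ost4 and Pdia4 in GF ICH day 3 against GF sham became 0.0628 and 0.27. Without the 7 sparse libraries, in GF ICH day 3 against GF sham, Sec11c became -0.20, Srp72 0.49 and Pdia4 0.42, and without the 2 of GF sham -0.19, 0.49 and 0.42. Srp72 in GF sham against SPF sham became -0.57 and -0.57 in those fits, and with 1 library left out it ran from -0.38 to 2.82, below 0 without GF sham replicate 1. With 1 library left out at a time, in GF ICH day 3 against GF sham, Srp72 ran from -2.90 to 0.30, Ost4 from -1.45 to 0.20 and Pdia4 from -1.59 to 0.57, each above 0 without GF sham replicate 1. In SPF ICH day 7 against SPF sham, Stt3a ran from -0.74 to 0.10 and Pdia4 from -0.34 to 0.12, above 0 without SPF sham replicate 2.

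Samples with the same replicate number did not deviate together: in 0 of 15 comparisons was every correlation over 0.1, and the correlations ran from -0.31 to 0.24. With the replicate block the counts were 13 in GF ICH day 7 against GF sham, 15 against GF ICH day 3, 13 against SPF ICH day 7, 6 in the GF minus SPF response at day 7, 2 in ABX ICH day 7 against ABX sham, 3 against ABX ICH day 3 and 0 against SPF ICH day 7.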
